A study of Mus musculus with 10 samples.

Results

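The AP-1 factor genes are 9 genes that encode the proteins of the AP-1 transcription factor: *Fos*, *Fosb*, *Fosl1*, *Fosl2*, *Jun*, *Junb*, *Jund*, *Atf3* and *Batf3*. They are 9 of 21911 protein-coding genes on the mouse autosomes, X and Y. Their sites were chosen by position alone. An ATAC-seq peak was taken when it lay in the gene body or within 50 kb of it and its nearest start of a protein-coding transcript was that of a member gene. Peaks of the 6 ATAC-seq libraries that overlap or abut were merged, and 62 of the 108367 merged sites belonged to the 9 genes. By the same rule, 16 H3K4me3 regions in quiescent cells and 16 in activated cells belonged to them.

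The cells were primary neural stem and progenitor cells (NSPCs) from the brains of C57BL/6 mice at postnatal day 5, grown at early passage. Both cell types were present, so neither was assayed alone. Activated NSPCs grew with EGF and FGF2 at 20 ng/ml each. Quiescent NSPCs were held for 4 days, as the sample labels have it, with FGF2 at 20 ng/ml and BMP4 at 25 ng/ml and no EGF (the study's methods give a shorter time). Reactivated NSPCs spent 4 days in the quiescence medium and then 9 to 12 days in the activating medium. FGF2 was thus present in all 3 states, and no group carried a genetic change. ATAC-seq, in which the Tn5 transposase inserts adapters into open chromatin, was done on 2 libraries per state, which the study describes as independent biological replicates. ChIP-seq for H3K4me3, a histone mark of active and poised promoters, was done on 1 library per state in quiescent and activated NSPCs, without a replicate.

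AP-1 is a dimer of basic leucine zipper proteins. Fos proteins pair with Jun proteins, Jun proteins also pair with each other, and ATF and BATF proteins join as further partners. The dimers bind the palindrome TGANTCA and recruit enzymes that open chromatin. *Fos*, *Fosb*, *Jun*, *Junb* and *Atf3* are immediate early genes, which growth factors and stress induce within minutes through the MAP kinases, serum response factor (SRF) and CREB. EGF and FGF2 both signal through MAP kinases. A peak shows accessible DNA and not transcription, and RNA was not analysed here.

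Fold enrichment, the value used throughout, is the authors' ratio of the pileup of reads at a peak to the local background of the same library, on a linear scale. The lists held 47037 to 60355 peaks in the quiescent and activated libraries and 106270 and 106830 in the reactivated ones. The background pileup recovered from the lists was 12.1 in quiescent replicate 2 and 6.01 to 6.61 in the other 5 libraries, and 99% of the peaks in each list had a fold enrichment above a limit of 1.93 to 2.31. A site without a peak was therefore not detectable above about that level, and its absence is not shown. The defining markers of the labelled cells, *Sox2*, *Nes*, *Vim*, *Fabp7* and *Msi1*, had promoter peaks in all 6 ATAC-seq libraries and both H3K4me3 libraries. Of the microglial markers, *Cx3cr1* had a promoter peak in 1 ATAC-seq library and *Csf1r*, *Ptprc*, *Aif1* and *Spi1* had none in any library. Among endothelial markers *Kdr* had a promoter peak in 5 ATAC-seq libraries and the other 3 had none. Of the fibroblast markers, *Col1a1* had one in 5 libraries, *Dcn* in the 2 reactivated ones, and the other 2 had none. *Snap25*, *Tubb3* and *Syt1*, markers of neurons, had promoter peaks in all 6 libraries and *Rbfox3* in 3. The part of other cell types in the values given here was not tested, and in these bulk cultures fewer open cells and less open DNA per cell cannot be told apart.

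Many of the sites at AP-1 genes were open in every state. Of the 62 sites, 28 had a peak in all 6 libraries, where 23.6% of all 86041 sites assigned to any protein-coding gene did. The 62 comprised 19 promoter sites, within 1 kb of a start, 5 exonic, 11 intronic and 27 intergenic sites. At promoters, 10 of the 19 sites (52.6%) had a peak in every library, against 53.7% of the promoter sites of all genes. Away from promoters, 18 of 43 sites (41.9%) did, against 13.9% of such sites of all genes. Promoters were counted at protein-coding starts only, so these sites include some at the starts of non-coding genes. Of the 43, 16 overlapped an H3K4me3 region in quiescent and 15 in activated cells. Among them were the sites 18.4 kb upstream and 12.2 kb downstream of *Fos*, open in every library. These sites are thus not all distal elements. *Fos* had 14 sites, 7 of them open in every library, and *Jun* had 11, of which 6 were. *Fosb* had 6 such sites of 7, *Atf3* 3 of 7, *Junb* 2 of 3, *Jund* 2 of 4, *Fosl2* 1 of 4, *Batf3* 1 of 10 and *Fosl1* 0 of 2.

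Few sites were called in only one of the quiescent and activated states. A peak in both quiescent libraries and in neither activated one was found at 1 site, where the share among all assigned sites was 5.82%. The opposite pattern was found at 2 sites, against 4.02%. A further 7 sites had peaks in both reactivated libraries alone, against 14.6%. They were 4 of the 19 promoter sites, against 11.6% of all promoter sites, and 3 of the 43 other sites, against 15.6%. None of those 7 kept this pattern when each list was limited to its 47037 strongest peaks. That cut removes the weaker peaks of the longer reactivated lists. Each of the 7 had a reactivated peak at or below the 34.5 percentile of its list, so the loss followed from the cut. The share of all sites losing the pattern was not computed. Another 14 sites had a peak in 1 library only, against 29.7%, and the last 10 had other patterns. With 2 libraries per state, an exact permutation test of 1 site cannot give a two-sided p below 0.333, so presence was not tested site by site.

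**Figure D1:**
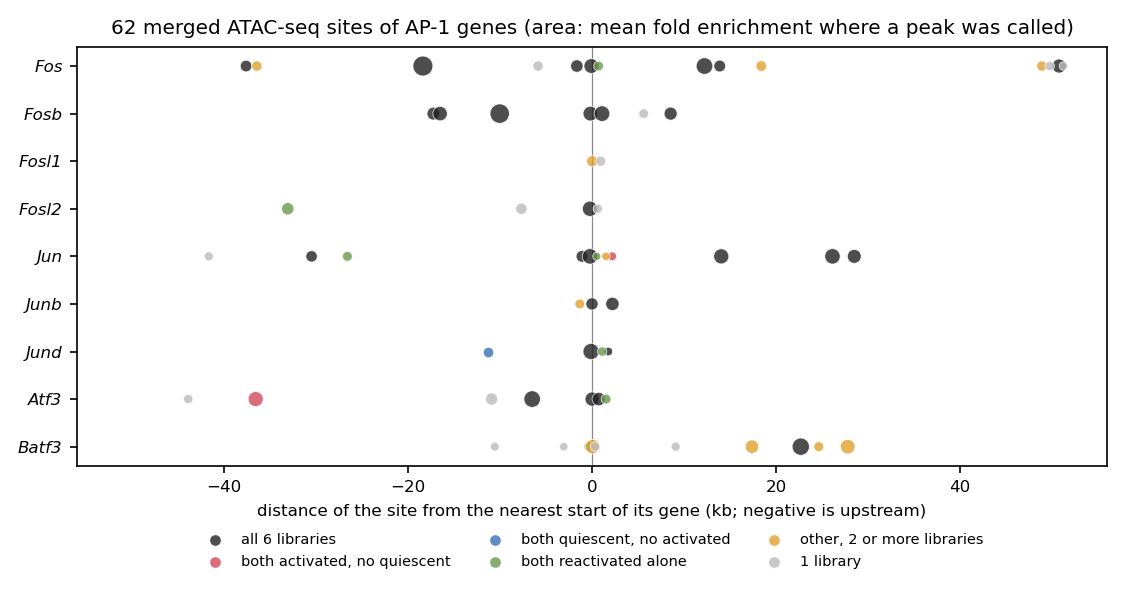
Each point is 1 of the 62 merged ATAC-seq sites, placed by its distance in kb from the nearest start of a coding transcript of its gene (x axis) and by gene (y axis). Colour gives the libraries with a peak and area the mean fold enrichment over those libraries. The 28 sites open in all 6 libraries (black) lay at the starts and, for *Fos*, *Fosb*, *Jun*, *Junb*, *Jund* and *Atf3*, also outside promoters, while the single one of *Batf3* lay 22.7 kb from a start.

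Several of these sites carry the motifs through which immediate early genes are known to be induced. Exact matches on both strands were counted in the 200 bp around the summit of each site's strongest peak. The CArG box, the motif of SRF (CC, 6 bases of A or T, then GG), was present at 4 of the 62 sites (6.45%), against 1.03% of all 108367 sites. The cyclic AMP response element (CRE) TGACGTCA was present at 1 site (1.61%), against 0.686%. Its shorter core TGACGT, a search added after the sequences had been seen and which every full CRE also contains, was present at 14 sites (22.6%), against 3.12%. At promoter sites the core was present at 6 of 19 against 7.16%, and at the other sites at 8 of 43 against 2.16%. The AP-1 motif TGANTCA itself was present at 4 sites (6.45%), against 7.59%. The median GC content of these windows was 66% at promoter sites and 55.5% at other sites of the members, and 64% and 51% at those of all genes. These counts describe letters in a window and were not tested. The promoters of RefSeq run from 250 bases before to 50 after a start and include 8 of the 9 members. TGACGT was found there for *Fos* and *Atf3* and in 7.51% of all 32851 promoters. None of the 8 held TGANTCA, TGACGTCA or a CArG box. The CArG boxes of the *Fos* and *Fosb* promoter sites, printed below, lie just upstream of these windows. For *Jund* and *Fosl2* the windows are placed at other starts than those used here.

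The 4 sites with a CArG box are shown first, since the box lies in the window around the summit of their strongest peak. They are followed by the site 18.4 kb upstream of *Fos*, which has 3 copies of TGACGT. The only member site with a full CRE was the *Jund* promoter, whose window RefSeq places in the transcribed leader of the gene, and its sequence is not shown. Each printed sequence is the 200 bp around the summit, read 5′ to 3′ on the plus strand of GRCm38.p6 (the mm10 build) from RefSeq's genome, and capitals mark CArG boxes, CREs, TGACGT in either orientation, and TGANTCA.
Fos promoter, chr12:85473459-85473658: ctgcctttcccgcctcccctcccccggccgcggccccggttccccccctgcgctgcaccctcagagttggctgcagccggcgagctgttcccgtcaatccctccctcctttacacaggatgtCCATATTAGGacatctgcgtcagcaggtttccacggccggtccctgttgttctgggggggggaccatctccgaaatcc
Fosb promoter, chr7:19310252-19310451: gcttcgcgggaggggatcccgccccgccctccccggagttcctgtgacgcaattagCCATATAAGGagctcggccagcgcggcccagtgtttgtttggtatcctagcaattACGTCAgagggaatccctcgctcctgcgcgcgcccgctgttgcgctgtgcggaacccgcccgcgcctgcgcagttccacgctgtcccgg
Fos 12.2 kb downstream, chr12:85486008-85486207: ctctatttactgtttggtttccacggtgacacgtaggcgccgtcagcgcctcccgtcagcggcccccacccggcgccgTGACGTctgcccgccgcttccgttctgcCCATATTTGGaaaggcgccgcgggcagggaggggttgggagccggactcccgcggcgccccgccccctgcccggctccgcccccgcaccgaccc
Junb 2.21 kb downstream, chr8:84976542-84976741: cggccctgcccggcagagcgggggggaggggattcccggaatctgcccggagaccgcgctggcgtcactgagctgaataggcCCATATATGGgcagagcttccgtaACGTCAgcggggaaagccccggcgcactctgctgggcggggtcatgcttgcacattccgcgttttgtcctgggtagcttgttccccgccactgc
Fos 18.4 kb upstream, chr12:85455328-85455527: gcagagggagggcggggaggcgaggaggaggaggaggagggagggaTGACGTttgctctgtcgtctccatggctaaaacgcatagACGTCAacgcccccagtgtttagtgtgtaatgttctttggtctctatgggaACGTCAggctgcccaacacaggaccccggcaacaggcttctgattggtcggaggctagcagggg

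The promoters of 7 of the 9 genes had an ATAC-seq peak in all 6 libraries, as had those of 52.2% of the 21829 protein-coding genes with this measure. The exceptions were *Fosl1* and *Batf3*. With lists of equal length *Junb* was lost as well.

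*Fos*, whose protein is the founding partner of Jun, had its promoter site at chr12:85473424-85474184, 86 bp upstream of the start on the plus strand. Fold enrichment there was 5.99 and 7.24 in the quiescent libraries, 6.53 and 7.59 in the activated libraries, and 7.84 and 7.49 in the reactivated libraries. The quiescent and activated values overlapped. *Fosb*, which also encodes the truncated and long-lived ΔFosB, had 6.58 and 5.24, then 8.22 and 5.30, then 8.15 and 9.08 in the same order at the site 186 bp upstream of its start (chr7:19309944-19310531). These groups overlapped too. Its other promoter site, 1077 bp downstream of the nearest start (chr7:19308117-19308930), had 5.41 and 6.46 (quiescent), 8.01 and 8.48 (activated) and 9.68 and 10.2 (reactivated). There the 3 states did not overlap in fold enrichment as deposited. High reactivated values are common. Over all sites with a peak in all 6 libraries, the reactivated mean was above the activated one at 92.6% and above the quiescent one at 93.9%. *Fosl2*, which encodes Fra-2, had 6.52 and 6.40, then 9.36 and 6.71, then 7.49 and 9.33 at its promoter (chr5:32134978-32136165). Both quiescent values lay below the other 4. *Fosl1*, which encodes Fra-1, a Fos protein without a strong activation domain, had its strongest promoter site over its start (chr19:5447520-5447896). A peak was called there in quiescent replicate 1 at 3.16 and in the reactivated libraries at 4.00 and 4.92, and in neither activated library.

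*Jun*, which encodes the subunit that can pair with itself, had 7.54 and 9.33 (quiescent), 8.28 and 7.76 (activated) and 7.33 and 7.09 (reactivated) at its promoter (chr4:95051972-95052930). Both reactivated values were below the other 4, while quiescent and activated values overlapped. A neighbouring *Jun* promoter site, 1105 bp upstream and over an exon of the antisense gene *Junos*, held 4.60 and 4.44, then 4.76 and 4.67, then 4.10 and 4.53. *Junb*, often an antagonist of Jun, had 5.40 and 3.66, then 5.08 and 5.28, then 4.84 and 5.15 (chr8:84978479-84978980), with no order among the states. *Jund*, the member that most cells express steadily, had 9.30 and 9.05 in quiescent libraries at its promoter (chr8:70698324-70699343), and the first was the highest promoter value of the 9 genes in that library. It had 8.82 and 8.73 in activated libraries and 6.72 and 8.43 in reactivated ones. Here the 3 states did not overlap, and the reactivated values were the lowest.

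*Atf3*, a stress-induced partner that often represses, has 2 coding starts. The promoter site at the downstream start (chr1:191182942-191183741) had 5.47 and 4.92 (quiescent), 8.19 and 6.34 (activated) and 6.97 and 7.33 (reactivated), and both quiescent values were the lowest. The site beside it, 728 bp downstream (chr1:191182341-191182883), had 4.85 and 5.35, then 5.02 and 3.93, then 8.53 and 7.82. There the reactivated values stood above the other 4 as deposited. With each library centred on its median, as described below, neither log2 difference of the reactivated libraries passed. They were 0.23 from activated (adjusted p 0.491, limma) and -0.19 from quiescent libraries (adjusted p 0.521, limma). *Batf3*, known for its role in dendritic cells, had its strongest promoter site at chr1:191098192-191098567, over its first exon. A peak was called there in activated replicate 1 at 4.24 and in the reactivated libraries at 8.65 and 7.33, and in no quiescent library. The other promoter sites of the members, of *Fos*, *Fosl1*, *Fosl2*, *Jun*, *Jund* and *Batf3*, were called in reactivated libraries alone, in 1 or both of them, with fold enrichments of 2.15 to 3.59.

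**Figure D2:**
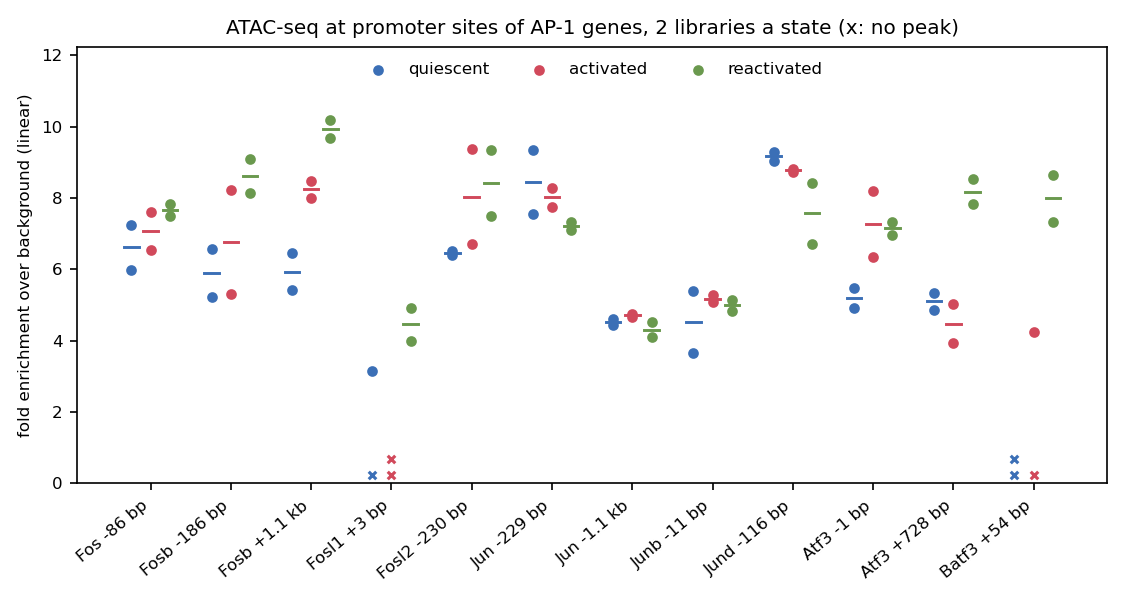
Fold enrichment over background (linear y axis) at 12 promoter sites of the 9 genes (x axis, with the distance from the nearest start), 1 point per library and a line at the mean of 2 libraries. A cross marks a library without a peak. *Fosl1* and *Batf3* lack a peak in 3 libraries each, and at the *Jun* site 229 bp upstream of the start the 2 reactivated libraries lie lowest, at 7.33 and 7.09.

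To compare strength between states, log2 fold enrichment was fitted with limma over the 23116 sites with a peak in all 6 libraries, of which 28 were member sites. The libraries differed over all these sites together. The median fold enrichment was 5.58 to 7.41 in the quiescent and activated libraries and 10.4 and 10.8 in the reactivated ones, a shift of 0.65 (log2) between reactivated and activated and of 0.87 between reactivated and quiescent libraries. Between quiescent and activated libraries it was -0.22. Each library was centred on its own median, so that differences are relative to this shift, and values without centring stand beside them where the direction turns.

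Between quiescent and activated NSPCs, limma called 0 of the 28 member sites at an adjusted p of 0.05, with 3 at an unadjusted p under 0.05. Over all sites it called 7.05% higher and 6.35% lower in quiescent cells. Without centring it called 0 member sites higher and 1 lower, where 1.91% and 9.46% of all sites were. The median log2 difference was 0.03 over the member sites and 0.07 over all sites tested, and without centring these turned to -0.19 and -0.15. At the 10 promoter sites tested the differences ran from -0.26 (95% interval -0.66 to 0.15) at the *Fosb* site 1077 bp downstream to 0.42 (-0.04 to 0.88) at the *Atf3* site 728 bp downstream. The largest difference of a member was at the site 37.6 kb upstream of *Fos* (chr12:85435967-85436545, near the start of the lincRNA *Gm40477*), with 5.38 and 3.44 in quiescent against 2.65 and 3.57 in activated libraries. The groups overlapped there, and the difference of 0.71 (SE 0.27) had an adjusted p of 0.0825 by limma. It ran from 0.35 to 1.02 with 1 library left out, and passed without activated replicate 2 (adjusted p 0.036, limma). The site 22.7 kb downstream of *Batf3* (chr1:191120866-191121175) had 7.92 and 7.47 against 11.8 and 14.0, without overlap, and its difference of -0.52 (SE 0.18) had an adjusted p of 0.0586 in limma. It passed without centring (-0.74, adjusted p 0.0179, limma) and in 3 of the other fits. With 1 library left out it ran from -0.78 without activated replicate 1 to -0.30 without activated replicate 2 (adjusted p 0.41, limma).

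The 3 sites that were called in only one of these states were weak or distal. The site 36.6 kb upstream of *Atf3* (chr1:191254449-191254804, intergenic) had 6.95 and 5.17 in activated and 9.41 and 8.31 in reactivated libraries, and no peak in quiescent libraries. These values lay at the 61.3 to 83.3 percentiles of their lists. In the 3′ UTR of *Jun*, 2184 bp downstream of its start (chr4:95049886-95050191), a peak was called at 2.62 and 2.51 in activated and at 2.44 and 2.65 in reactivated libraries, near the lowest values called in any list. The site 11.3 kb upstream of *Jund* (chr8:70687397-70687956, intergenic) had 3.91 and 3.67 in quiescent and 3.52 and 3.39 in reactivated libraries, and no peak in activated libraries. All 3 had peaks in both reactivated libraries, whose lists are the longest. The share of all such sites with peaks there was not computed. The summits of the 2 distal ones are shown as places where a peak was called in one of these states and not in the other, on the same strand. Neither window holds any of the motifs above, so neither has capitals.
Atf3 36.6 kb upstream, chr1:191254547-191254746: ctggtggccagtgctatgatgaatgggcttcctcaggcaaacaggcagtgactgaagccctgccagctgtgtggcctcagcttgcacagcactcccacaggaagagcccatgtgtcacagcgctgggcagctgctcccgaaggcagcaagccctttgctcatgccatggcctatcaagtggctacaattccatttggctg
Jund 11.3 kb upstream, chr8:70687599-70687798: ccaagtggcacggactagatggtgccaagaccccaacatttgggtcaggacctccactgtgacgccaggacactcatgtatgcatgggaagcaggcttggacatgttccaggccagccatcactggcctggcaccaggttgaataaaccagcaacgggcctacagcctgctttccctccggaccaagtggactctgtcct

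Against activated NSPCs, the reactivated libraries were lower at 8 and higher at 2 of the 28 member sites after centring (limma, adjusted p of 0.05), where 14.5% of all sites were lower and 7.66% higher. Without centring the counts turned to 1 lower and 10 higher, where 0.472% and 52.6% of all sites were. At promoters, 6 of the 10 member sites were lower after centring, against 18.6% of all promoter sites, and 0 were higher, against 4.51%. Their median log2 difference was -0.62, against -0.18 over the 11254 promoter sites of all genes, and without centring it was 0.03 against 0.48. When promoter sites alone were centred on their own median, limma called 3 of the 10 lower and 0 higher, where 11.0% and 8.20% of all promoter sites were. Against quiescent NSPCs, 12 member sites were lower and 1 higher after centring, where 25.7% and 11.5% of all sites were, and 0 lower and 13 higher without centring, where 0.545% and 68.2% were. At 6 of the 10 promoter sites the reactivated libraries were lower than the quiescent ones after centring, against 32.0% of all promoter sites, and at 0 they were higher, against 5.67%. With missing values set to the lowest of the list, 0 of the 48 member sites then tested passed in either comparison. Few sites passed at all in that fit. Of all sites, 0.00535% were higher and 0.428% lower than in activated libraries, and 0.831% and 1.47% than in quiescent ones. Both comparisons use the same 2 reactivated libraries, and the counts of lower sites fell when either was left out, as they did over all sites.

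Among the promoter sites tested, those of *Jund* and *Jun* stood lowest in both comparisons. At the *Jund* promoter the log2 difference of reactivated from activated libraries was -0.87 (SE 0.18, adjusted p 0.0026, limma) and from quiescent libraries -1.16 (SE 0.18, adjusted p 6.66e-05). At *Jun* the differences were -0.80 (SE 0.19, adjusted p 0.00645, limma) and -1.09 (SE 0.19, adjusted p 0.000212). Without centring these 4 values kept their sign at -0.22, -0.28, -0.15 and -0.22 and none passed in limma. As deposited, fold enrichment was higher in reactivated than in activated libraries at 92.6% of all sites tested, and at these promoters it was not. The deposited −log10 q, which grows with depth, did not fall alike. It was 121 and 78.7 in activated and 155 and 160 in reactivated libraries at *Jun*. At *Jund* it was 83.7 and 64.5, then 81.5 and 124. Fold enrichment is a ratio to local background, and whether signal or background differed at these promoters was not tested. Against activated libraries the *Jund* call was lost without reactivated replicate 1 (adjusted p 0.0587, limma) and the *Jun* call without reactivated replicate 2 (adjusted p 0.0559, limma), and against quiescent libraries both calls held whichever library was left out. The *Junb* promoter, the second *Jun* promoter site, *Atf3* at its downstream start and *Fosl2* also passed against activated libraries after centring, with differences of -0.58 to -0.78. All 4 of these calls were lost without either reactivated library (adjusted p 0.0804 to 0.281, limma), and each was lost without 1 or both of the activated libraries. Without centring none passed, with differences of -0.0516 at *Junb*, -0.13 at the second *Jun* site, -0.0112 at *Atf3* and 0.0767 at *Fosl2*. The *Fos* promoter passed against quiescent libraries only (-0.65, SE 0.22, adjusted p 0.0206, limma). Without centring its difference was 0.22, and the call was lost without quiescent replicate 2 or either reactivated library. Neither *Fosb* promoter site passed after centring in either comparison. Without centring, the promoter sites that passed higher were the *Atf3* site 728 bp downstream, in both comparisons (0.88, adjusted p 0.00634, and 0.68, adjusted p 0.0185, limma), and the *Fosb* site 1077 bp downstream against quiescent libraries (0.75, adjusted p 0.00498).

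A site downstream of *Jun* went the other way. It lies 14.0 kb past the start of the gene (chr4:95037657-95038692, in an intron of the non-coding gene *Gm12703*) and was singled out after its values were seen. The quiescent libraries had fold enrichments of 3.29 and 2.83, the activated ones 6.37 and 4.28, and the reactivated ones 13.8 and 14.6. The 3 states did not overlap. The reactivated libraries were higher than the quiescent ones by 1.35 (SE 0.22, adjusted p 8.9e-05, limma) and than the activated ones by 0.79 (SE 0.22, adjusted p 0.0133), both after centring, and the second call was lost without activated replicate 2 or without either reactivated library (adjusted p 0.103 to 0.119, limma). With missing values at the lowest of the list neither passed in limma, at 1.16 (adjusted p 0.312) and -0.0118 (adjusted p 0.995). This site has a peak in every library, so none of its own values was missing. That fit centres each library over 74759 sites, most with a value set in this way. Other member sites moved down with it, such as *Atf3* at its downstream start, from -0.66 to -1.47 against activated libraries. Between quiescent and activated libraries the difference of -0.55 (SE 0.22) had an adjusted p of 0.0972 by limma. Its summit, the only one of the members that passed higher in both comparisons, holds none of the motifs above.
Jun 14.0 kb downstream, chr4:95038089-95038288: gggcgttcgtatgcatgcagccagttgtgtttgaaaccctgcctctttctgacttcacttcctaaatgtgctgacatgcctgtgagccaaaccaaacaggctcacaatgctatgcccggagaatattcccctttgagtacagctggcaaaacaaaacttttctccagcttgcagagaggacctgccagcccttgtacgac

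The other member site that passed higher after centring lies 6.52 kb upstream of the upstream start of *Atf3*, at the start and over an exon of the lincRNA *D730003I15Rik* (chr1:191224058-191225061). It had 5.97 and 7.01 (quiescent), 7.07 and 5.30 (activated) and 14.6 and 14.2 (reactivated), and differed by 0.58 (SE 0.18, adjusted p 0.027, limma) from activated libraries. The call was lost without activated replicate 2 or either reactivated library (adjusted p 0.12 to 0.209, limma), and the difference turned to -0.22 with missing values at the lowest of the list. The site 22.7 kb downstream of *Batf3* fell most, with 7.97 and 9.70 in reactivated against 11.8 and 14.0 in activated libraries, a difference of -1.20 (SE 0.18, adjusted p 0.000178, limma), and it is the one member site that passed lower without centring too. High fold enrichment in every state was also found at distal sites. The site 18.4 kb upstream of *Fos* had 11.1 and 11.3, then 13.5 and 11.6, then 14.9 and 16.0, and lay at or above the 95.4 percentile of every list. The site 10.1 kb upstream of *Fosb* had 8.31 and 10.04, then 12.8 and 9.73, then 15.4 and 17.7. At *Junb* the site 2.21 kb downstream (chr8:84976178-84976838, over an exon of the gene) had 4.68 and 5.14, then 5.98 and 5.81, then 7.11 and 6.45, with no overlap between the states as deposited. *Fosl2* had no distal site open in more than the reactivated libraries, of which the strongest, 33.1 kb upstream, had 6.00 and 3.99.

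**Figure D3:**
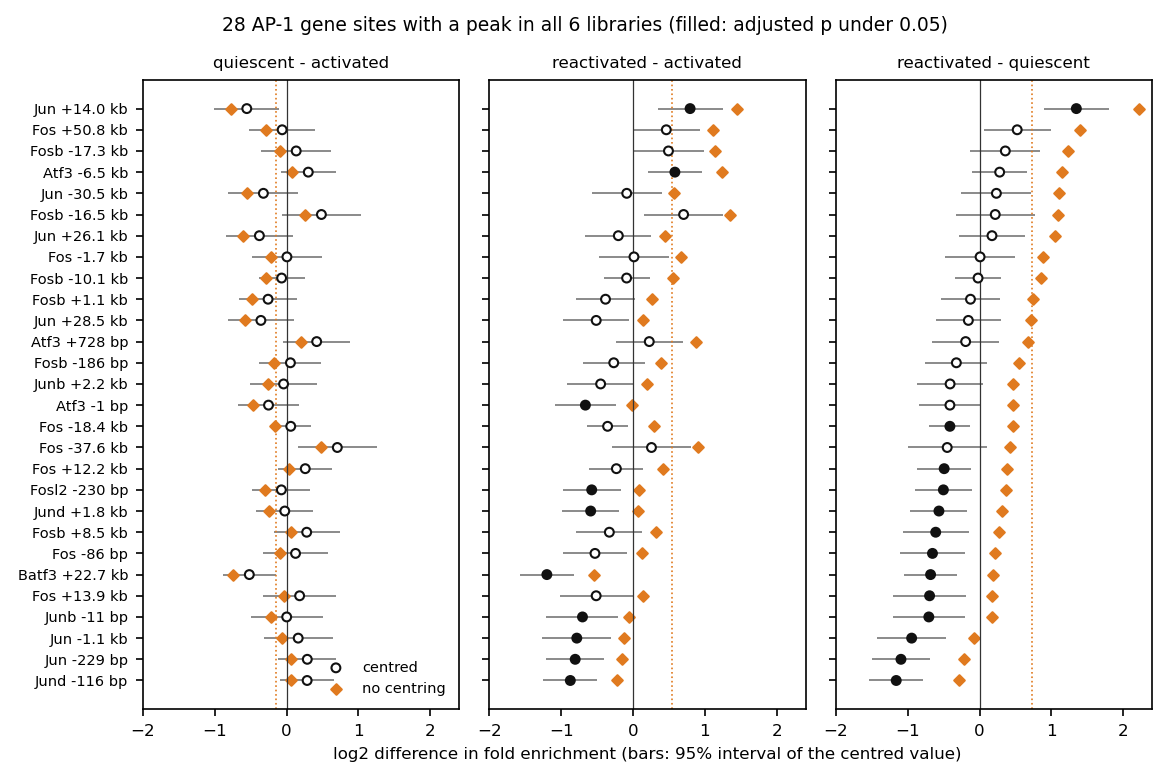
Log2 differences in fold enrichment (x axis) at the 28 member sites with a peak in all 6 libraries (y axis, by distance from the nearest start), 1 panel per comparison. Circles with 95% intervals are values centred on each library's median (filled where limma's adjusted p was under 0.05), diamonds are values without centring, and the dotted line is the median uncentred difference of all 23116 sites. The *Jun* site at 14.0 kb stands highest and the *Jund* promoter lowest against quiescent libraries, at 1.35 and -1.16 after centring.

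H3K4me3 covered the promoters of all 9 genes in both states, where 59.3% of the 21829 protein-coding genes had a promoter region in both. The 16 regions overlapped between the states pair by pair, and 9 of them lay at promoters. Those at *Fosl2*, *Jun*, *Junb* and *Fos* were among the widest of their list in quiescent cells, with 5914, 5223, 4920 and 4584 bp, at the 98.7, 97.9, 97.4 and 96.5 percentiles of width, and the median region had 1734 bp. In activated cells they had 5360, 5578, 3885 and 3619 bp. The *Jun* region was wider in activated cells and the other 3 were narrower, as were 13 of the 16 member regions and 73.9% of all pairs of overlapping regions. *Fosl1* (1136 and 1117 bp) and *Batf3* (1290 and 1263 bp), the genes without a constant ATAC-seq peak at the promoter, had the narrowest promoter regions of the 9.

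Fold enrichment of H3K4me3 over input was 34.0 in quiescent and 31.8 in activated cells at the *Fos* promoter, 52.4 and 50.5 at *Jun*, 36.4 and 30.9 at *Junb*, and 51.6 and 47.4 at *Jund*. At *Fosb* it was 38.4 and 37.4, at *Fosl2* 36.7 and 34.1, at *Fosl1* 33.2 and 25.5, and at *Batf3* 32.2 and 36.6. The median ratio of activated to quiescent was 0.925 over the 16 member regions and 0.926 over all 15660 pairs of overlapping regions. With 1 library per state these differences have no replicate check and no test. A ratio of quiescent to activated of at least 1.5 was found at 3 of the 16 regions, where 6.71% of all pairs had one, and the opposite at 0 of 16, where 1.46% had one. The 3 were the *Atf3* promoter at the downstream start, with 45.9 in quiescent and 27.8 in activated cells, the region 18.4 kb upstream of *Fos*, with 18.4 and 11.9, and the region 10.1 kb upstream of *Fosb*, with 15.5 and 8.09. The lincRNA start 6.63 kb upstream of *Atf3* had 45.5 and 59.2, a ratio at the 95.1 percentile of all pairs, while the *Atf3* promoter stood at the 3.08 percentile. The region 51.3 kb downstream of *Fos*, with 3.59 and 4.88, stood at the 96.5 percentile. That 8.44 kb downstream of *Fosb*, with 8.39 and 11.2, stood at the 96.1 percentile.

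Of the ATAC-seq sites, 18 of the 19 promoter sites and 16 of the 43 other sites overlapped an H3K4me3 region in quiescent cells, and 18 and 15 in activated cells. The shares over the sites of all genes are not given here, so these counts do not set the members apart. The 7 regions away from promoters lay at *Fos*, *Fosb* and *Atf3*. The *Jun* site at 14.0 kb, the *Batf3* site at 22.7 kb and the *Atf3* site at 36.6 kb had none in either state.

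**Figure D4:**
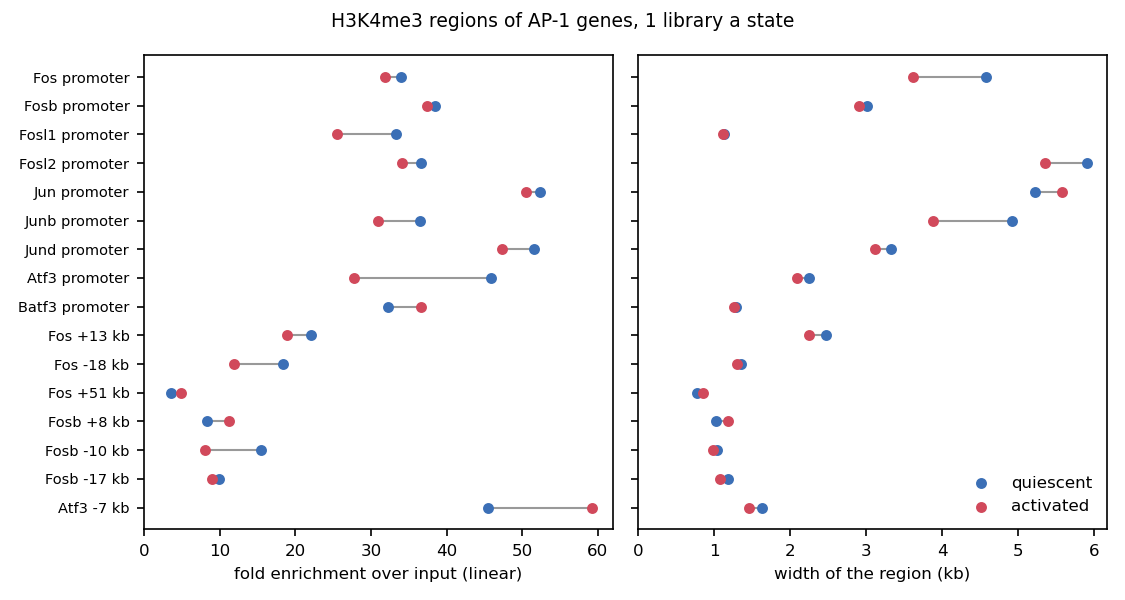
Fold enrichment over input (left, linear) and width in kb (right) of the 16 H3K4me3 regions of AP-1 genes (y axis, by the distance of their middle from the nearest start), with quiescent in blue and activated in red, 1 library each. *Fosl2*, *Jun*, *Junb* and *Fos* have the widest regions, and the largest drop in activated cells as a difference is at the *Atf3* promoter, from 45.9 to 27.8, while as a ratio it is at the region 10.1 kb upstream of *Fosb*, from 15.5 to 8.09.

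Most genes of the same pathway had a promoter peak in every ATAC-seq library. Of 11 genes for other leucine zipper partners, 9 had a promoter peak in all 6 ATAC-seq libraries, and *Batf* and *Batf2*, relatives of *Batf3* known from immune cells, had none in any ATAC-seq or H3K4me3 library. Between quiescent and activated cells 0 of their 13 promoter sites passed in limma. All 9 genes of upstream kinases and factors had promoter peaks in all 6 libraries, and 1 of their 9 promoter sites passed. It was at *Elk1*, an ETS factor that binds beside SRF, with 12.7 and 14.7 (quiescent), 12.7 and 10.6 (activated) and 13.2 and 14.0 (reactivated). The centred log2 difference of quiescent from activated libraries was 0.46 (SE 0.14, adjusted p 0.0337, limma), and quiescent replicate 1 and activated replicate 1 were equal as deposited. Of 11 other immediate early genes 10 had promoter peaks in all 6 libraries, and *Egr4* had one in 5. Of their 15 promoter sites 1 passed, at *Arc*, a gene of synaptic activity, where the log2 difference was -0.76 (SE 0.24, adjusted p 0.0376, limma). Among all promoter sites 4.33% were higher and 1.90% lower in quiescent cells. After centring, limma was also read for the reactivated libraries in these lists. Against activated libraries it called lower 3 of the 13 promoter sites of the leucine zipper partners, 5 of the 9 of the upstream kinases and factors and 3 of the 15 of the other immediate early genes, and none higher, where 18.6% of all promoter sites were lower. Against quiescent libraries it called lower 3, 4 and 5 of them, and 1 site of the immediate early genes higher, where 32.0% of all promoter sites were lower. The shares of the partners and of the immediate early genes were thus near those of all promoter sites or below. At the 5 promoter sites of the stem and progenitor markers, 4 were lower in each comparison. Without centring, the log2 difference turned above 0 at 4 of the 11 pathway sites called lower than in activated libraries and at 9 of the 12 called lower than in quiescent ones, and at 2 and 3 of the 4 marker sites.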

How the data were processed

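ATAC-seq was done on 2 libraries in each of 3 states and H3K4me3 ChIP-seq on 1 library in each of 2. Per the labels and the study's methods, the authors trimmed reads (Trim Galore 0.4.0), aligned them to mm10 (Bowtie2 2.2.5), marked duplicates (Picard 1.88) and removed them (SAMtools 1.3.1), reduced the reads of the reactivated libraries and called peaks in each library with MACS. The deposited fold enrichment is a ratio to the library's own background and is not normalized between libraries. The −log10 p-values and q-values that the authors deposited grow with depth, and the deposited score is derived from −log10 q and was not used. Reads themselves were not used here.

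The members and lists were chosen with earlier results of these data known. Peaks on autosomes, X and Y were merged over the 6 libraries and assigned to the nearest start of a protein-coding transcript in GENCODE M21. A site's value in a library is its highest fold enrichment. Sites with a peak in all 6 libraries were fitted with limma 3.58.1 (R 4.3.3) on log2 fold enrichment with no pseudocount, median centring, all 3 states in 1 model, moderated variances with a trend, and Benjamini-Hochberg adjustment over all sites. Named were all promoter sites, sites called in only one of the quiescent and activated states, and sites singled out in the text. The site classes, the limma fit and the motif search were tested on simulated data. Alternatives were a minimum −log10 q of 10, lists of equal length, merging by shared bases, a window of 10 kb, 1 start per gene, a 2 kb promoter, other scalings, a replicate block, fits of fewer libraries, and whole sites for motifs. Another motif that had been listed is not reported here. The other steps used pandas 2.3.3, numpy 2.4.6 and matplotlib 3.10.9 under Python 3.11.15.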

Additional observations from a re-analysis of the deposited data

How the results depend on the processing

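The count of sites and their promoter peaks kept their size under most settings, and the comparison of reactivated libraries with the others depended on the scaling. With a minimum −log10 q of 10, 18 sites had a peak in all 6 libraries, 0 were called in quiescent but not activated libraries and 1 in activated but not quiescent ones. With a window of 10 kb there were 37 sites, of which 17 were open in all libraries, 0 were called in quiescent but not activated libraries and 1 the other way. With lists of equal length 2 sites were called in quiescent but not activated libraries and 0 in reactivated libraries alone. In whole sites, the one alternative for motifs, TGANTCA was present at 6 (9.68%), against 11.4% of all sites, and TGACGTCA at 1 (1.61%), against 0.962%. The CArG box was present at 5 (8.06%), against 1.76%, and TGACGT at 19 (30.6%), against 5.25%. With each library left out in turn, the number of sites ran from 54 to 62, sites open in all libraries from 28 to 29, those in quiescent but not activated libraries from 1 to 5, the opposite from 2 to 4, and those in reactivated libraries alone from 7 to 17, the last without reactivated replicate 2. A state with a library left out then needs only its other library. The shares of all sites in these classes under these settings were not computed, so the changes in these counts do not set the members apart.

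Between quiescent and activated libraries limma called 1 member site lower, and 0 higher, without centring, with missing values set to the lowest of the list, with the replicate block, and with a minimum −log10 q of 10, where 9.46%, 6.32%, 6.47% and 3.70% of all sites were lower. The replicate number was shared by name only: deviations of same-numbered libraries correlated at -0.00, 0.04 and -0.02, and the replicate block moved no other member count. For reactivated against activated libraries, 10 were higher and 1 lower without centring, 0 and 0 with missing values at the lowest of the list, 1 and 5 with a minimum −log10 q of 10, and 5 were lower with quantile normalization. Of all sites 52.6% and 0.472%, 0.00535% and 0.428%, and 7.15% and 11.9% were higher and lower in the first 3 fits, and 8.92% lower in the last. For reactivated against quiescent libraries, 13 were higher and 0 lower without centring, 0 and 0 with missing values at the lowest of the list, 0 and 4 with a minimum −log10 q of 10, 6 were lower with quantile normalization, and 2 were higher without the trend. Of all sites 68.2% and 0.545%, 0.831% and 1.47%, and 10.8% and 22.2% were in the first 3, 14.1% were lower in the fourth and 11.2% higher in the last. At promoters, 1 was higher and 0 lower than in activated libraries without centring, and 2 and 0 against quiescent libraries. With missing values at the lowest of the list 0 were lower in either comparison, with promoter sites centred on their own median, a fit chosen after seeing the data, 3 and 3 were (11.0% and 19.9% of all promoter sites), and with a minimum −log10 q of 10, 3 were lower than in quiescent libraries. The causes were not tested. With each library left out, 0 to 1 sites were higher and 0 to 1 lower in quiescent than in activated libraries, 0 to 3 higher and 2 to 8 lower in reactivated than in activated libraries, and 1 to 2 higher and 3 to 12 lower than in quiescent ones. At promoters 1 to 6 were lower than in activated and 3 to 6 than in quiescent libraries. The lowest counts came without either reactivated library, and those of the quiescent comparison also fell without either quiescent library. The share of all sites called fell in the same fits, so the fall does not describe the members alone.

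Without centring, the log2 difference of reactivated from activated libraries turned to 0.12 at the *Fos* promoter, 0.27 at the *Fosb* site 1077 bp downstream, 0.38 at the other *Fosb* promoter site and 0.0767 at *Fosl2*. That from quiescent libraries turned to 0.22 at *Fos*, 0.75 and 0.55 at the same *Fosb* sites, 0.37 at *Fosl2*, 0.17 at *Junb*, 0.46 and 0.68 at the *Atf3* sites at and 728 bp downstream of the start, and 0.19 at the *Batf3* site at 22.7 kb. At the *Fosb* site 1077 bp downstream it also turned to 0.0415 with a minimum −log10 q of 10 and 0.0513 with promoter sites alone, and ran from -0.36 to 0.0385 with a library left out. With missing values at the lowest of the list, the difference of reactivated from activated libraries turned to -0.58 at the *Atf3* site 728 bp downstream, -0.22 at the site 6.52 kb upstream of *Atf3* and -0.0118 at the *Jun* site at 14.0 kb, and that of quiescent from activated libraries to -0.19 at the former.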
